A study of Homo sapiens with 44 samples.

Results

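Wnt ligands, their receptors and the secreted proteins that tune them were followed in a colon fibroblast line after exposure to single cytokines. The members were every row of the count table named WNT, FZD, SFRP, DKK or RSPO with a number (and, for WNT, an optional A or B), plus LRP5 and LRP6. They came to 43 of 40663 gene symbols and comprised 19 ligands, 10 Frizzled receptors, 2 co-receptors, 4 R-spondins, 4 SFRP inhibitors and 4 DKK inhibitors.

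Wnt proteins are lipid-modified ligands that bind Frizzled receptors together with the co-receptors LRP5 or LRP6, which stabilises β-catenin, or that act through Frizzleds and other receptors without β-catenin. R-spondins raise the amount of Frizzled at the cell surface by neutralising the ubiquitin ligases that remove it. SFRPs bind Wnt proteins outside the cell, whereas DKK1 and DKK2 bind LRP5 and LRP6. In the gut wall, fibroblasts are a source of Wnt ligands, R-spondins and inhibitors for the epithelial stem cells at the base of the crypt.

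Ccd-18Co is an established line of normal human colon fibroblasts, so that all 44 libraries came from 1 line. The cells were starved of serum for 72 h and kept for 24 h without cytokine (unstimulated) or with IL-1β at 0.1 ng/ml (the dose in the labels), or with TNF, IL-17A, OSM, IL-6, IL-13, IL-22, IFNα, IFNγ or TGF-β1 at 10 ng/ml. Each of the 11 groups had 4 bulk RNA-seq libraries. The labels do not say that these were separate cultures, so the p-values measure the spread between these libraries, which may be technical.

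Library totals lay between 742173 and 2213424 counts with a median of 1480883, so that 3 counts corresponded to between 1.39 and 3.85 CPM, the count of a gene scaled by the size of its library. The mean correlation of a library with the others of its group, over log2 CPM, was 0.874 at the lowest and 0.923 at the median. All 11 fibroblast markers were abundant enough to be tested, and together they reached between 29350 and 41375 CPM in unstimulated libraries. In the same libraries 8 epithelial markers summed to between 21.9 and 27.0 CPM, 6 immune markers to between 0 and 9.30 CPM, 3 glial markers to at most 2.81 CPM, and 4 endothelial markers to 0. Markers of smooth muscle, which contractile fibroblasts share, summed to between 350.4 and 1111 CPM over 5 genes. CDX2, CD3E, MS4A1, KDR and SOX10 were at 0 in all libraries.

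Of the 43 members, 9 had no count in any library, namely WNT1, WNT3A, WNT6, WNT7A, WNT10A, FZD9, RSPO4, SFRP5 and DKK4. Another 12 had at most 13 counts over all 44 libraries. A further 8, WNT3, WNT16, FZD2, FZD3, FZD5, LRP5, RSPO1 and DKK2, had between 42 and 202 counts in all and did not reach the level needed for testing. The remaining 14 were tested among 9513 genes. They were the ligands WNT2, WNT2B, WNT5A and WNT5B, the receptors FZD1, FZD4, FZD6, FZD7 and FZD8, the co-receptor LRP6, the agonist RSPO3, and the inhibitors SFRP1, DKK1 and DKK3. RSPO3 and WNT2 were near 0 in unstimulated cells and were tested through the groups in which they were higher, so that some difference between groups was built into their selection. FZD8, with 4 to 10 counts in unstimulated libraries, was likewise tested through other groups, TGF-β1 among them.

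Unstimulated fibroblasts expressed 1 dominant ligand and a few abundant inhibitors. Per kb of the Ensembl canonical transcript, WNT5A, a ligand known mainly for signaling without β-catenin, stood at 425 ± 212 CPM (SD, n = 4). DKK1, which blocks LRP5 and LRP6, followed at 70.5 ± 22.8 CPM per kb. Both were apart from their lower neighbour in every library. The Wnt-binding inhibitor SFRP1 (25.7 ± 9.02), the receptor FZD6 (20.6 ± 6.31) and DKK3 (18.8 ± 5.42), a secreted glycoprotein of the Dickkopf family, overlapped with each other on the same scale. FZD7 stood at 9.05 ± 1.95, WNT5B at 8.24 ± 3.49 and WNT2B at 3.90 ± 0.65 CPM per kb. Before scaling by length these were 41.5, 18.5 and 43.4 CPM. The place of WNT2B thus rests on its canonical length of 11130 bases, and which transcripts the cells made is not known. From WNT2B downward, FZD1, FZD4, LRP6, WNT3 and FZD8 ran from 3.02 to 1.08 CPM per kb and each overlapped with its neighbour. RSPO3 stood at 0.37 ± 0.61 CPM per kb, and its neighbours FZD2 and WNT2 overlapped with it.

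**Figure D1:**
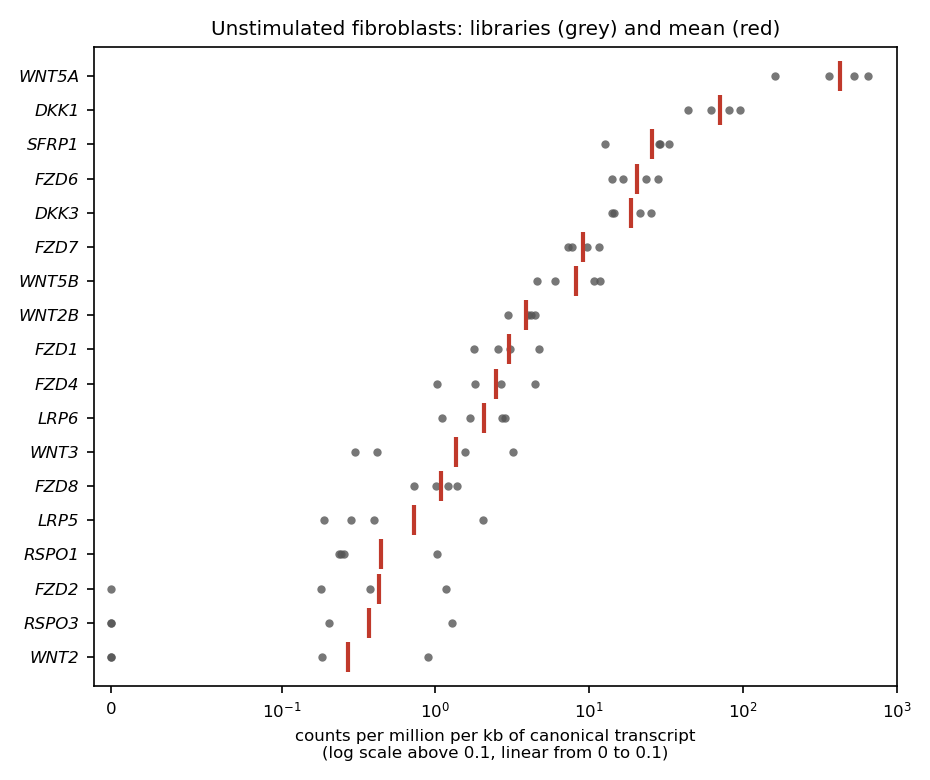
Level of the 18 members with a mean of at least 1 CPM in unstimulated Ccd-18Co fibroblasts, in CPM per kb of canonical transcript (x axis, logarithmic above 0.1 and linear below it). Grey points are the 4 libraries and the red bar is their mean. WNT5A lies between 161 and 652 and DKK1 between 43.6 and 96.1, both above all other members, and RSPO3 and WNT2 are at 0 in some libraries.

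Across the 11 groups, the edgeR quasi-likelihood F test called 11 of the 14 tested members at an adjusted p under 0.05. The same test called 35.7% of all genes. FZD6 (adjusted p = 0.0658), FZD7 (0.163) and LRP6 (0.472) were not called. Against unstimulated cells, edgeR called 19 of the 140 combinations of a tested member and a cytokine, and these lay in 9 members. That is 13.6% of the combinations, against 5.45% over all genes and the same 10 comparisons. RSPO3, WNT2 and FZD8 are among the 14, and they were tested through groups in which they were higher. Neither the 11 of 14 nor the 13.6% is therefore free of selection. WNT2B was lower in 4 groups, SFRP1 in 3 and FZD4 in 2. WNT5A, WNT5B and FZD1 were lower in 1 group each. RSPO3 was higher in 3 groups, DKK3 in 1, and DKK1 was lower in 2 groups and higher in 1.

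The direction of the calls differed from cytokine to cytokine. IL-1β raised 1 member and lowered 3, where 3.46% of all genes tested were called higher and 3.92% lower. TNF raised 1 (all genes, 5.37%) and lowered 4 (6.09%). OSM raised 0 (1.42%) and lowered 3 (2.54%), with 6 members of either direction at an unadjusted p under 0.05. IFNα raised 2 (4.99%) and lowered 0 (4.86%), IFNγ raised 1 (5.52%) and lowered 1 (5.13%), TGF-β1 lowered 2 (3.08%) and raised 0 (2.61%), and IL-13 lowered 1 (2.4%) and raised 0 (1.53%). Members with an unadjusted p under 0.05 in either direction numbered 5 after IFNα, 8 after TGF-β1 and 3 after IL-13. IL-17A called 0 members in edgeR, against 0.599% of all genes higher and 0.925% lower, with 4 members at an unadjusted p under 0.05 and 1, RSPO3, called by DESeq2. IL-6 called 0 members in edgeR or DESeq2, where 0.0105% of all genes were higher and 0% lower, and 0 members had an unadjusted p under 0.05. IL-22 called 0 members in either tool and 0% of all genes in either direction in edgeR, with 3 members at an unadjusted p under 0.05. The median log2 fold change over the 14 tested members was −0.60 after TNF and −0.51 after OSM, where the medians over all genes were −0.02 and 0.00, and it lay between −0.38 and 0.11 for the other cytokines.

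**Figure D2:**
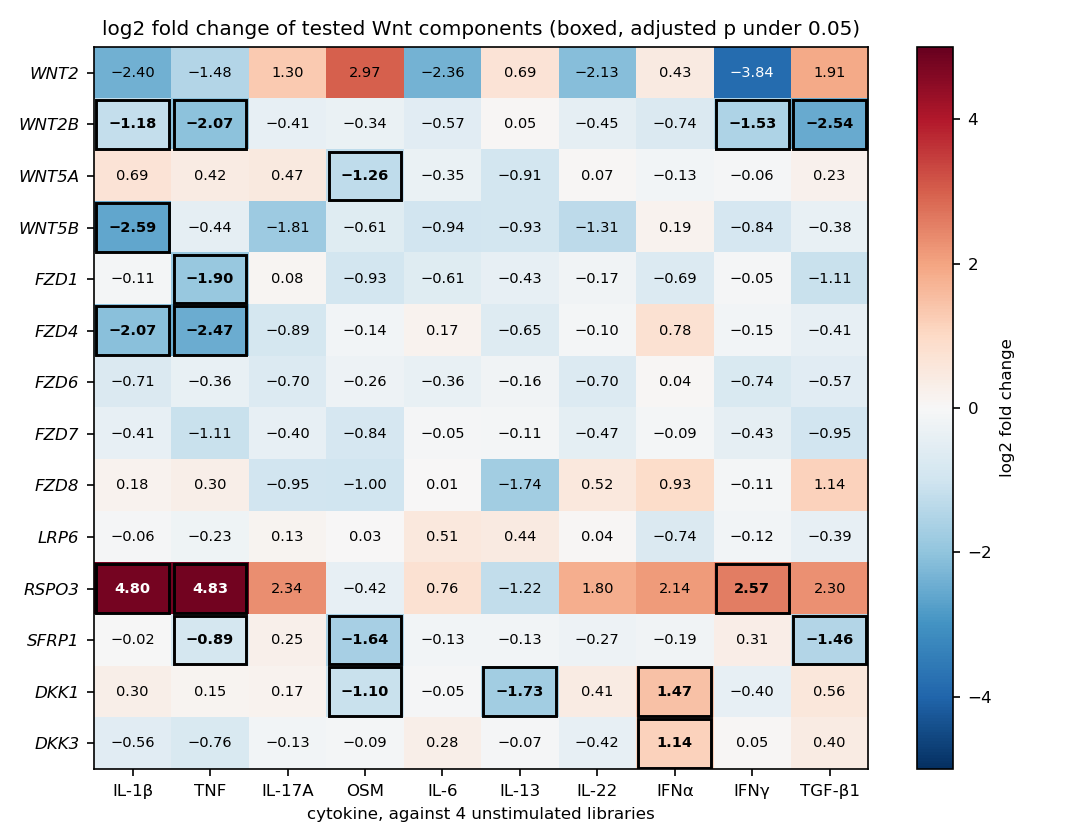
log2 fold change against unstimulated cells for the 14 tested members (rows) and 10 cytokines (columns), from 4 libraries a group. Boxed values have an edgeR adjusted p under 0.05. RSPO3 has the darkest red cells, 4.80 after IL-1β and 4.83 after TNF, whereas the WNT2B and FZD4 rows hold boxed negative values. The values of WNT2, which is near 0 in several groups, depend on the prior count of the fit.

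Upstream sequences are shown for the 4 genes on which the results below turn, the agonist with the largest rise, the inhibitor that moved in both directions, the ligand that fell in the most groups and the receptor that fell with IL-1β and TNF. Each is the 250 bases before a RefSeq transcription start on GRCh38.p14, read 5′ to 3′ on the strand of the gene, at chr6:127118421-127118670 (+) for RSPO3, chr10:52314031-52314280 (+) for DKK1, chr1:112466291-112466540 (+) and chr1:112508715-112508964 (+) for WNT2B, and chr11:86955396-86955645 (−) for FZD4. The first WNT2B window precedes the annotated gene start and the second precedes a start inside the gene. Such windows were kept for 9 of the 14 tested members. SFRP1 and FZD6 were left out of the search before this count, so it does not show whether they have a window. Capitals mark matches to the motifs searched.
RSPO3: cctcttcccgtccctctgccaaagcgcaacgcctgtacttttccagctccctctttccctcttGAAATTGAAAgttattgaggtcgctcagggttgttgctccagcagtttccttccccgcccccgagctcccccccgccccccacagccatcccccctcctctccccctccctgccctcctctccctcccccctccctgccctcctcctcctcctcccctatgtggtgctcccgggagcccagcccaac
DKK1: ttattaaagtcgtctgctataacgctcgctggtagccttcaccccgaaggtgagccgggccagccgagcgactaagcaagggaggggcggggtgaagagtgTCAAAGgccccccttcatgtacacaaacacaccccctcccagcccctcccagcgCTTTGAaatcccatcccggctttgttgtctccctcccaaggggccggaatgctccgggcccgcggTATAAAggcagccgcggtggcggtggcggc
WNT2B, gene start: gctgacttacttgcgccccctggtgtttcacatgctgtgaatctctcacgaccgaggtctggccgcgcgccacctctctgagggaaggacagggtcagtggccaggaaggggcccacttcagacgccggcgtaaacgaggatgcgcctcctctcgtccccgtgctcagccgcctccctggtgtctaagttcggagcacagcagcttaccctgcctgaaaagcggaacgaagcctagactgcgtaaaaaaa
WNT2B, internal start: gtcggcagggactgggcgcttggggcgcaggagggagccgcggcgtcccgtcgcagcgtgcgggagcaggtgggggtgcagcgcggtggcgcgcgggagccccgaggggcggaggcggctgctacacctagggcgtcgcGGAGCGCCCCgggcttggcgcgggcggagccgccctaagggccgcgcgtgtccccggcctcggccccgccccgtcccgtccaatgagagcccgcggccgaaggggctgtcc
FZD4: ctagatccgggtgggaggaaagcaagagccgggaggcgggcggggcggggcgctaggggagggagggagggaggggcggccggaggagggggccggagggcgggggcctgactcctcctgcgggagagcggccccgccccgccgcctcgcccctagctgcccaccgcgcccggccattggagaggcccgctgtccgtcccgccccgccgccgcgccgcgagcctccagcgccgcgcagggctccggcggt

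The search covered TTCNNNGAA, the letters of the gamma-activated site bound by STAT factors, GAAANNGAAA, the paired core of an interferon-stimulated response element, CTTTGA, the core bound by TCF and LEF factors, and the κB element by name, each on both strands. TATAAA was searched on the strand of the gene. RSPO3 held 1 match to GAAANNGAAA, found in 3.02% of all 35116 windows of the same length. DKK1 held 2 matches to CTTTGA, 1 on each strand, and 1 to TATAAA, found in 11.2% and 6.8% of all windows. The internal window of WNT2B held 1 match to the κB element, found in 9.96% of windows, and the window before its gene start and that of FZD4 held none of the 5 motifs. TTCNNNGAA, found in 6.57% of windows, had no match in these sequences. A match describes the letters only, and the gene counts do not show which start site the cells used.

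RSPO3, the R-spondin that potentiates Wnt signaling (chr6:127118671-127199481), was nearly silent without cytokine and strongly induced by IL-1β and TNF. Unstimulated libraries held 2, 0, 0 and 9 RSPO3 counts in replicates 1 to 4, or 0.979, 0, 0 and 6.15 CPM. RSPO3 reached 59.0, 58.3, 44.5 and 43.5 CPM after IL-1β, and 71.3, 38.8, 57.0 and 42.3 CPM after TNF. Every library of both groups was above every unstimulated library. The fitted rise was 27.8-fold after IL-1β (log2 4.80 ± 0.74 SE, edgeR adjusted p = 6.8e-06) and 28.4-fold after TNF (log2 4.83 ± 0.74, adjusted p = 5.5e-06). The size of the fold rested on unstimulated replicate 4, since without it the log2 fold changes of RSPO3 were 6.73 and 6.76.

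RSPO3 was also higher after IFNγ, at 4.52, 9.97, 20.8 and 8.54 CPM (log2 2.57 ± 0.76, edgeR adjusted p = 0.0207). The IFNγ libraries overlapped with unstimulated replicate 4. That RSPO3 call was lost when unstimulated replicate 1, 2 or 3 or IFNγ replicate 3 was left out, with adjusted p-values between 0.0615 and 0.114, whereas without unstimulated replicate 4 the log2 fold change was 4.50. The mean level of RSPO3 was 9.45 CPM after IL-17A (log2 2.34, adjusted p = 0.124), 8.89 after TGF-β1 (2.30, 0.0663), 8.09 after IFNα (2.14, 0.0674) and 6.14 after IL-22 (1.80, 0.398). After IL-6, OSM and IL-13 it was 3.02, 1.23 and 0.73 CPM. DESeq2 called RSPO3 after IL-17A, IFNα and TGF-β1 as well. Of the other R-spondins, RSPO1 had 83 counts over all libraries and RSPO2 had 2.

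DKK1, the secreted antagonist of LRP5 and LRP6 (chr10:52314281-52318042), moved in opposite directions with different cytokines. Unstimulated libraries held 111, 78.7, 146 and 174 CPM of DKK1. After IFNα, DKK1 stood at 305, 306, 345 and 458 CPM, and after IL-13 at 64.4, 40.1, 18.5 and 30.2 CPM. Neither group overlapped with unstimulated cells. The rise after IFNα was 2.78-fold (log2 1.47 ± 0.24, edgeR adjusted p = 9.7e-06), and after IL-13 the level was 3.32-fold lower (log2 −1.73 ± 0.26, adjusted p = 7.7e-06).

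OSM lowered DKK1 to 51.2, 40.9, 52.0 and 95.7 CPM (log2 −1.10 ± 0.25, edgeR adjusted p = 0.0039). The highest of these DKK1 values lay above unstimulated replicate 2, so the groups overlapped. After IL-1β, TNF, IL-17A, IL-6, IL-22, IFNγ and TGF-β1, the log2 fold change of DKK1 lay between −0.40 and 0.56 and was not called. PRKG1-AS1, on the opposite strand, shares 10.2% of the exon bases of DKK1 and was too low to be tested.

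DKK3 (chr11:11956207-12009769) was called higher after IFNα and was called for no other cytokine. It went from 54.4, 36.5, 63.3 and 35.5 CPM in unstimulated cells to 122, 111, 84.2 and 103 CPM after IFNα. The 2 groups of DKK3 values did not overlap, and the rise was 2.21-fold (log2 1.14 ± 0.27, edgeR adjusted p = 0.0028). USP47, on the opposite strand, shares 47.5% of the exon bases of DKK3, and its log2 fold change after IFNα was 0.28 (adjusted p = 0.258). The 6 immune markers summed to between 38.0 and 73.8 CPM after IFNα, nearly all of it CD68, a lysosomal protein also made outside macrophages, which rose from 2.87 to 59.1 CPM. PTPRC, the pan-leukocyte marker, had at most 2 counts in any library, and the part of other cells in the DKK1 and DKK3 values was not tested.

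SFRP1, which binds Wnt proteins, was lowered by OSM, TGF-β1 and TNF. Unstimulated SFRP1 levels were 128, 127, 56.3 and 148 CPM, with replicate 3 below the others. After OSM SFRP1 stood at 30.4, 43.3, 48.0 and 24.7 CPM and after TGF-β1 at 42.1, 52.1, 32.7 and 41.1 CPM. Both groups lay below every unstimulated library, with a 3.12-fold lower level after OSM (log2 −1.64 ± 0.29, edgeR adjusted p = 0.00015) and a 2.74-fold lower level after TGF-β1 (log2 −1.46 ± 0.29, adjusted p = 0.00085).

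After TNF, SFRP1 was at 86.1, 31.0, 52.5 and 76.1 CPM, overlapping with unstimulated replicate 3 (log2 −0.89 ± 0.28, edgeR adjusted p = 0.0266). This SFRP1 call was lost in a fit of the 8 libraries alone (adjusted p = 0.0998) and without unstimulated replicate 1, 2 or 4 or TNF replicate 2 or 3, with adjusted p-values between 0.0573 and 0.141. SFRP2, SFRP4 and SFRP5 had at most 4 counts in any library.

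**Figure D3:**
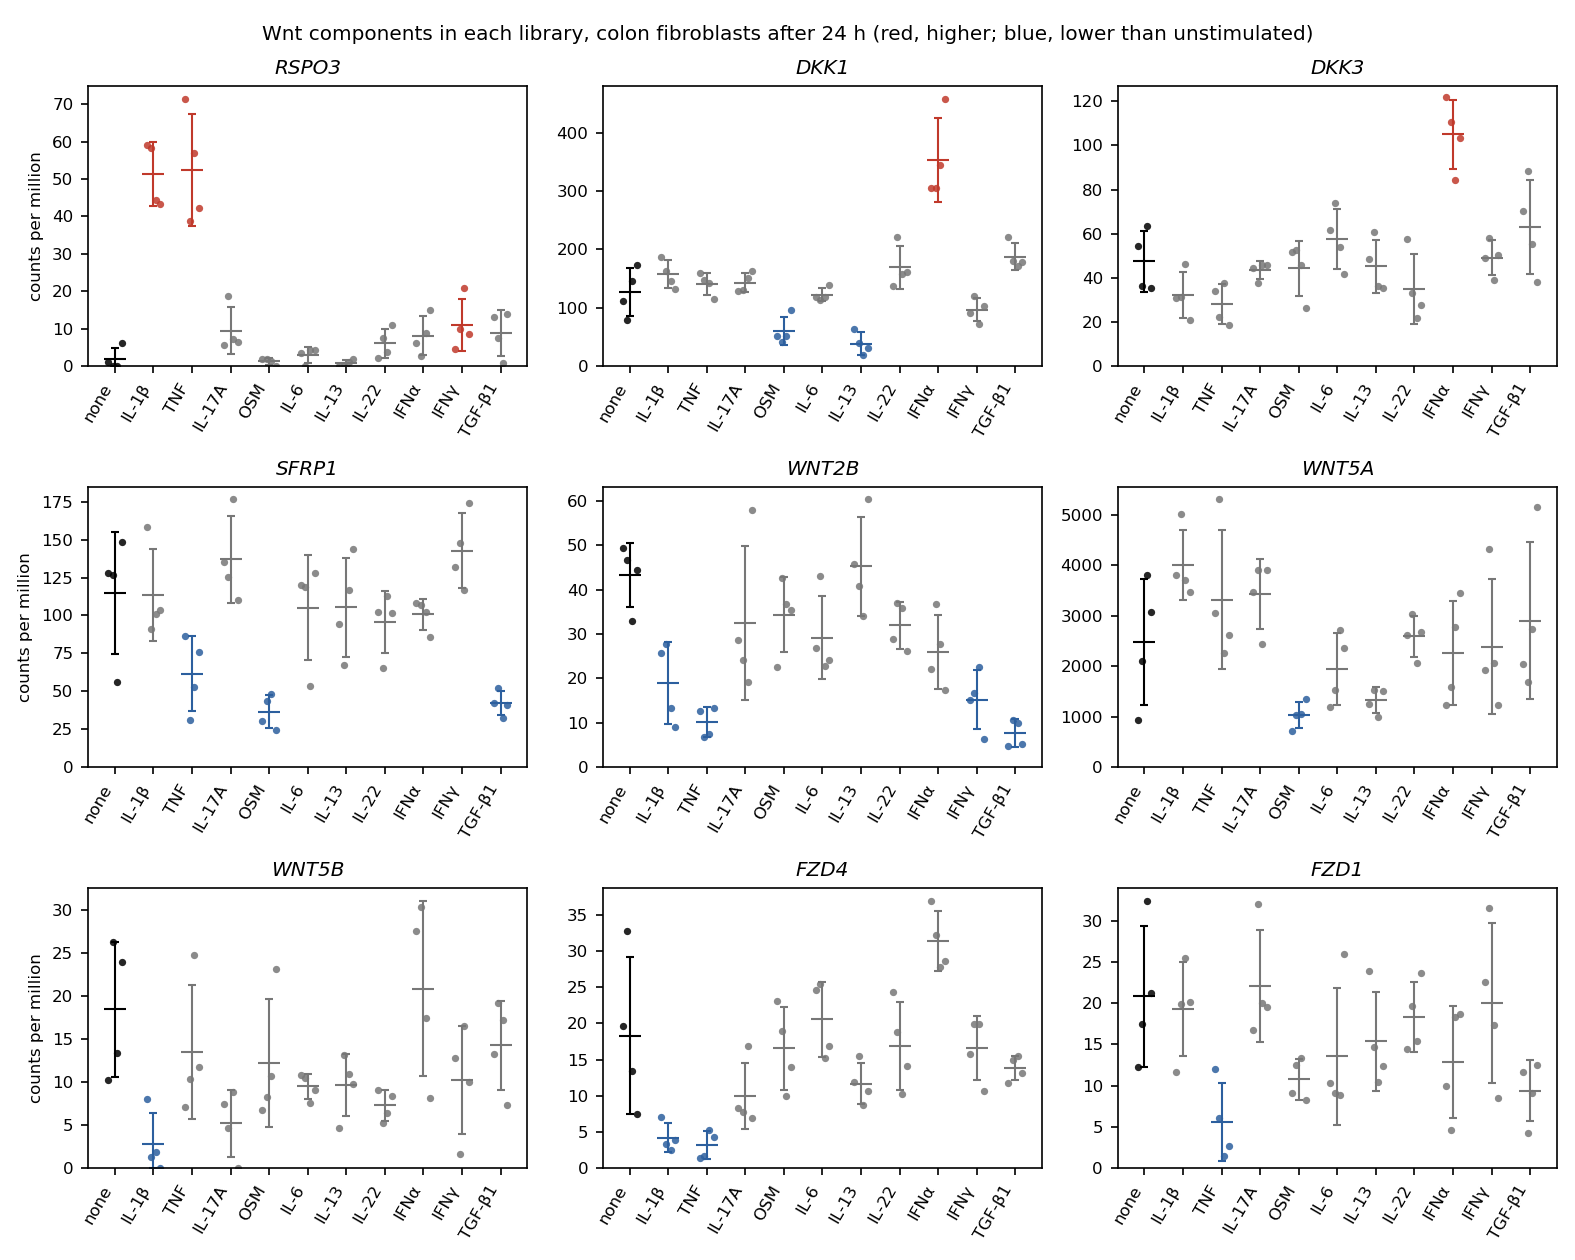
CPM (y axes, from 0) of the 9 members called for at least 1 cytokine, in each of the 4 libraries of the 11 groups (x axes; none is unstimulated). Points are libraries, horizontal bars are means and error bars are SDs, drawn no lower than 0. Red and blue groups were called higher and lower than unstimulated cells, black is unstimulated and grey was not called. RSPO3 stands at 38.8 CPM or more only after IL-1β and TNF, and DKK1 stands at 305 CPM or more only after IFNα.

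Among the ligands, WNT2B, which signals through β-catenin, fell in 4 groups (chr1:112466541-112530165). Unstimulated WNT2B levels were 49.5, 46.7, 33.1 and 44.4 CPM. WNT2B was at 4.68, 10.6, 9.98 and 5.14 CPM after TGF-β1 and at 12.7, 6.89, 7.50 and 13.4 CPM after TNF. It was at 15.1, 16.6, 22.5 and 6.41 CPM after IFNγ and at 25.7, 27.8, 13.3 and 9.08 CPM after IL-1β. None of the 4 groups overlapped with unstimulated cells.

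The level of WNT2B was 5.796-fold lower after TGF-β1 (log2 −2.54 ± 0.40, edgeR adjusted p = 1.8e-05), 4.20-fold lower after TNF (log2 −2.07 ± 0.37, adjusted p = 7.5e-05) and 2.88-fold lower after IFNγ (log2 −1.53 ± 0.36, adjusted p = 0.0031). After IL-1β it was 2.27-fold lower (log2 −1.18 ± 0.35, adjusted p = 0.0248), and this WNT2B call was lost in 6 of 14 alternatives, among them leaving out unstimulated replicate 1, 2 or 4 or IL-1β replicate 3 or 4, with adjusted p-values up to 0.145. ST7L, on the opposite strand, shares 21.5% of the exon bases of WNT2B, and its log2 fold changes in the same 4 groups lay between −0.51 and 0.08, none of them called.

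WNT5A (chr3:55465715-55490539) varied widely without cytokine, at 942, 2111, 3809 and 3068 CPM. After OSM, WNT5A stood at 719, 1024, 1050 and 1347 CPM (log2 −1.26 ± 0.35, edgeR adjusted p = 0.0296). The groups overlapped, since unstimulated replicate 1 lay among the OSM libraries. The WNT5A call was lost without unstimulated replicate 3 or 4 or OSM replicate 1, 2 or 3, with adjusted p-values between 0.0718 and 0.189. WNT5B (chr12:1529891-1647212), a close relative of WNT5A, held 10.3, 26.2, 13.4 and 23.9 CPM in unstimulated cells and 8.07, 1.33, 1.91 and 0 CPM after IL-1β. The WNT5B groups did not overlap (6.01-fold lower, log2 −2.59 ± 0.67, adjusted p = 0.0079), and without IL-1β replicate 1 the log2 fold change was −3.98.

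WNT2, a β-catenin ligand, was close to 0 in most groups. It had 13, 14, 11 and 18 counts after OSM, against 7, 0, 1 and 0 in unstimulated cells. All OSM libraries were above all unstimulated libraries in WNT2, although the edgeR adjusted p was 0.0534 (log2 2.97 ± 0.91). WNT2 passed the low-count filter through these OSM libraries. After IFNγ all 4 libraries were at 0 for WNT2. The summed WNT2 counts gave a ratio of OSM to unstimulated of 7.30, with an exact 95% interval of 3.46 to 17.7 that covers counting error only.

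Among the receptors, FZD4 (chr11:86945679-86955395), which binds Wnt proteins and norrin, fell with IL-1β and TNF. Unstimulated FZD4 levels were 19.6, 32.8, 13.4 and 7.51 CPM, against 7.06, 3.31, 2.54 and 3.89 CPM after IL-1β and 1.41, 1.72, 5.25 and 4.29 CPM after TNF. Every library of both groups was below every unstimulated library. The level was 4.21-fold lower after IL-1β (log2 −2.07 ± 0.42, edgeR adjusted p = 0.00058) and 5.54-fold lower after TNF (log2 −2.47 ± 0.44, adjusted p = 7.6e-05). PRSS23, on the opposite strand, shares 18.9% of the exon bases of FZD4 and fell in the same groups, with log2 fold changes of −1.47 ± 0.24 after IL-1β (adjusted p = 1.2e-05) and −1.02 ± 0.23 after TNF (adjusted p = 0.0016). PRSS23 was also called lower after IFNγ (log2 −0.87 ± 0.23, edgeR adjusted p = 0.0092), where FZD4 was not called (log2 −0.15 ± 0.39). After IFNα both were higher without a call, PRSS23 at log2 0.65 ± 0.22 and FZD4 at log2 0.78 ± 0.38. The share of FZD4 counts that came from PRSS23 was not tested.

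FZD1 (chr7:91264433-91271326) fell with TNF, from 12.2, 17.5, 32.4 and 21.2 CPM to 12.0, 6.03 and 2.68 CPM in TNF replicates 1, 2 and 4 and to 2 counts in replicate 3. The 2 groups of FZD1 values were apart by a narrow margin, at 12.2 against 12.0 CPM (3.73-fold lower, log2 −1.90 ± 0.49, edgeR adjusted p = 0.0065). In a fit of the 8 libraries alone the adjusted p for FZD1 was 0.0514, and without TNF replicate 1 the log2 fold change was −2.60. FZD6, FZD7, FZD8 and the co-receptor LRP6 were not called for any cytokine. The closest of them was FZD7 after TNF, at 19.2 against 41.5 CPM (log2 −1.11 ± 0.39, adjusted p = 0.0567), which DESeq2 called. LRP6 stayed between 12.6 and 30.5 CPM in group means, and its log2 fold changes lay between −0.74 and 0.51.

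The fibroblast markers moved in some of these groups. Their summed level over 11 genes lay between 21499 and 27865 CPM after TNF, where 6 of 11 were called lower, and between 24238 and 32534 CPM after IL-1β, where 4 were called lower. It lay between 17447 and 34434 CPM after IFNγ, with 2 called lower, between 26047 and 30700 CPM after TGF-β1, with 4 called lower, and between 41191 and 52652 CPM after IL-13, with 2 called higher and 1 lower. After OSM 1 was called higher, after IL-17A 1 lower and after IFNα 3 lower. KRT18, an epithelial keratin that other cells also make at low levels, fell after IL-1β, TNF and IL-17A, and ACTG2 of the smooth muscle list fell after IL-1β. The part of these shifts in the values of the Wnt members was not tested, and in bulk RNA fewer cells of a type and less RNA per cell cannot be told apart.

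In direct comparisons between cytokines, IFNα and IFNγ differed in 2 of the 14 tested members, against 9.39% of all genes. DKK1 was 3.65-fold higher after IFNα than after IFNγ (log2 1.87 ± 0.24, edgeR adjusted p = 2.7e-07), where IFNγ libraries lay between 72.8 and 119.6 CPM. DKK3 was 2.13-fold higher (log2 1.09 ± 0.28, adjusted p = 0.0061). No library of one group reached the range of the other in either gene. RSPO3 did not pass the test between these interferons (log2 −0.42 ± 0.65, edgeR adjusted p = 0.787).

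IL-13 and TGF-β1 differed in 6 of the 14, against 12.4% of all genes. In a fit of the 8 libraries compared, FZD8 and RSPO3 did not pass the low-count filter. Libraries of other groups brought both into the tests, so the 6 of 14 was not free of selection. After IL-13, WNT2B was 6.02-fold higher (log2 2.59 ± 0.40, edgeR adjusted p = 5.0e-06) and SFRP1 2.51-fold higher (log2 1.33 ± 0.29, adjusted p = 0.0010) than after TGF-β1. DKK1 was 4.90-fold lower (log2 −2.29 ± 0.26, adjusted p = 5.4e-09). FZD8 had 3, 1, 1 and 2 counts after IL-13 and 19, 7, 13 and 7 after TGF-β1 (log2 −2.88 ± 0.78, adjusted p = 0.0093), and RSPO3 had 0, 0, 2 and 2 against 17, 7, 1 and 19 (log2 −3.52 ± 0.90, adjusted p = 0.0055). Without IL-13 replicate 4 the log2 fold change of RSPO3 was −4.14. WNT5A was 2.19-fold lower after IL-13 (log2 −1.13 ± 0.35, adjusted p = 0.0256), and the call was lost without IL-13 replicate 1 or 3 or TGF-β1 replicate 4, with adjusted p-values between 0.0615 and 0.195. TGF-β1 replicate 4 held 5161 CPM of WNT5A, against 1687 to 2730 CPM in the other TGF-β1 libraries.

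OSM and IL-6, which share the receptor chain gp130, differed in 3 of the 14, against 2.67% of all genes. SFRP1 was 2.85-fold lower (log2 −1.51 ± 0.29, edgeR adjusted p = 0.00059) and DKK1 2.06-fold lower (log2 −1.04 ± 0.25, adjusted p = 0.0085) after OSM than after IL-6. The DKK1 call was lost without OSM replicate 1 or 2, with adjusted p-values of 0.0505 and 0.0711. The third was WNT2, which passed the low-count filter through the OSM libraries. Some difference was therefore built into its selection, and the 3 of 14 is not free of it. WNT2 was higher after OSM (adjusted p = 0.0026), with 56 counts in the 4 OSM libraries against 1 in the 4 IL-6 libraries. The ratio of these WNT2 counts was 60.4, with an exact 95% interval of 10.4 to 2429 that covers counting error only. The single count lay in IL-6 replicate 4, and without that library the fitted log2 fold change of WNT2 went from 5.34 to 6.81. TNF and IL-1β differed in 0 of the 14 in edgeR, against 1.15% of all genes, although FZD1 (adjusted p = 0.0558), SFRP1 (0.124), WNT5B (0.118) and WNT2B had an unadjusted p under 0.05, and DESeq2 called FZD1 and WNT5B.

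Members with few counts were examined in a fit of 23518 genes with any count, which held 34 members. DKK2, which like DKK1 binds LRP5 and LRP6, was at 0 in all 4 unstimulated libraries and had 2, 9, 20 and 10 counts after IL-13 and 4, 6, 9 and 0 after IFNα. In that fit DKK2 was called after IL-13 (edgeR adjusted p = 0.0066) and IFNα (adjusted p = 0.0283). After TGF-β1 DKK2 had 3, 2, 1 and 3 counts and was not called (adjusted p = 0.133). Set against a floor of 3 counts over the 4 unstimulated libraries, the ratio for DKK2 was 15.2 after IL-13 and 6.44 after IFNα. With the unstimulated counts taken as 0, the exact 95% lower bounds were 11.8 and 4.74, which cover counting error only. FZD5, a receptor, had 11, 3, 13 and 6 counts after IFNγ against 0, 2, 0 and 0 (adjusted p = 0.0703). WNT16 was at 0 in unstimulated cells and reached 8 and 3 counts in 2 of the IL-22 libraries and 2, 3 and 9 in 3 of the IFNα libraries, and was not called against unstimulated cells for any cytokine. The F test over all groups in that fit called DKK2 (adjusted p = 7.5e-08), WNT16 (0.0025), FZD5 (0.0107) and WNT9A (0.0114), whose 13 counts included 10 in IL-22 replicate 2. FZD2, another receptor, had 22, 10, 5 and 2 counts after IFNα against 9, 0, 2 and 1 (adjusted p = 0.537). The members named in this paragraph were picked after their values were seen, so their levels are descriptions of these libraries.

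**Figure D4:**
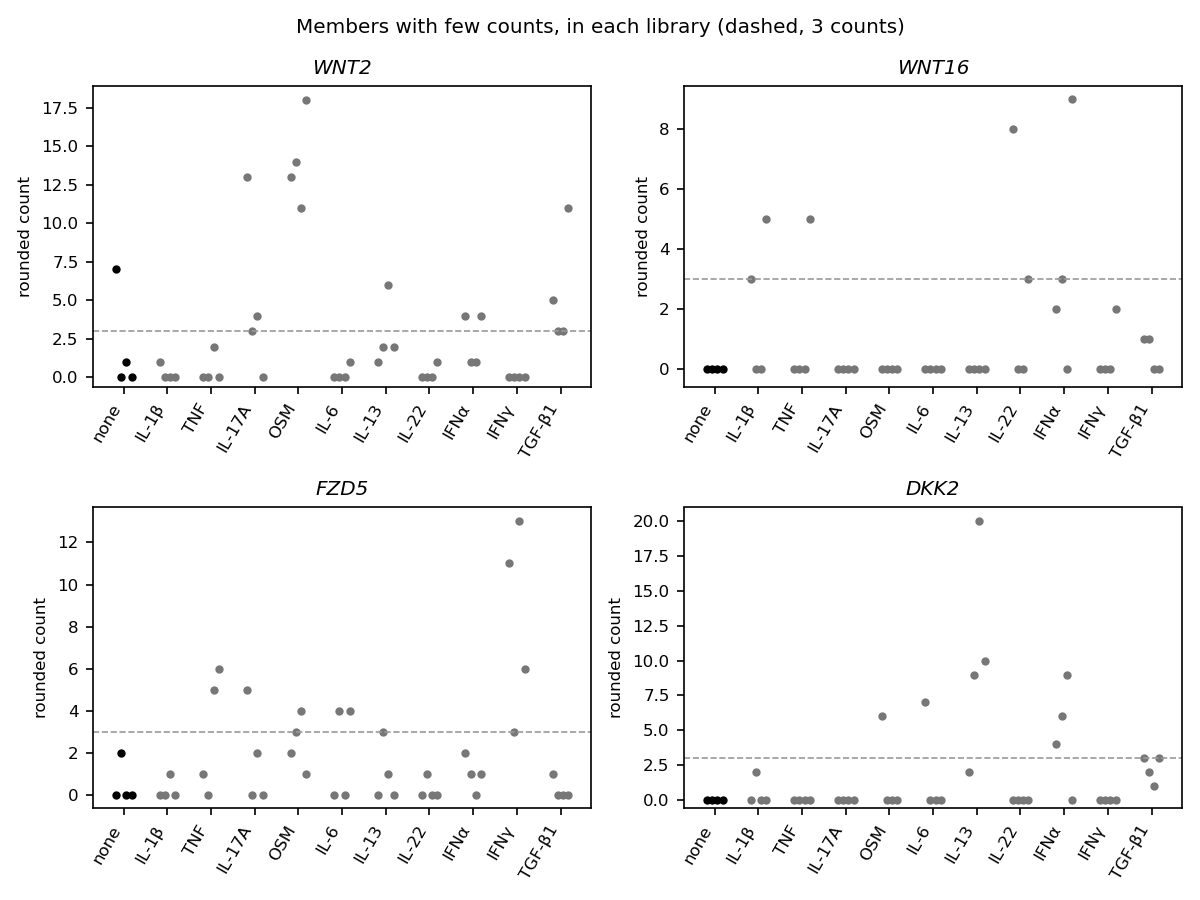
Rounded counts of WNT2, WNT16, FZD5 and DKK2 in each library (y axes) of the 11 groups (x axes; none is unstimulated, in black), with the dashed line at 3 counts. WNT2 stands at 11 to 18 counts after OSM and DKK2 at 2 to 20 after IL-13, and DKK2 and WNT16 are at 0 in every unstimulated library.

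Other genes of the pathway were read from lists of its parts, in which only well-detected genes were tested. The shares of all genes called for each cytokine, given above, apply to these counts too. Of 3 genes for Wnt secretion 1 was tested, WLS, the carrier that brings Wnt proteins to the surface. WLS rose after TNF (log2 0.82 ± 0.21, edgeR adjusted p = 0.0062) and fell after IL-13 (log2 −0.82 ± 0.22, adjusted p = 0.0189). Of 16 genes of the cytoplasmic chain 9 were tested and only APC was called, lower after IFNγ (log2 −1.18 ± 0.24, adjusted p = 0.00040). APC is part of the complex that degrades β-catenin.

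Of 12 other secreted modulators 4 were tested, and each of them was called for several cytokines. GREM1, an antagonist of BMPs, rose after TNF, OSM (log2 0.95) and IFNα (log2 0.83) and fell after IL-13 (log2 −0.997). IGFBP4 rose after IL-17A, OSM and IFNα. CCN2, a matricellular protein and known target of TGF-β, fell after IL-1β (log2 −1.48 ± 0.22, edgeR adjusted p = 2.4e-06) and rose after IFNα (log2 1.35 ± 0.21, adjusted p = 5.0e-06) and TGF-β1 (log2 2.02 ± 0.21, adjusted p = 6.6e-09). CCN1 fell after IL-1β and IL-17A and rose after IFNα. All 4 were called higher after IFNα, where 4.99% of all genes were, with a median log2 fold change of 0.86.

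Of 13 other receptors and co-receptors 6 were tested. LGR4, a receptor for R-spondins, fell after IFNγ (38.7 to 10.9 CPM, log2 −1.81 ± 0.38, edgeR adjusted p = 0.00068) and TNF (16.8 CPM, log2 −1.19 ± 0.36, adjusted p = 0.0220). SDC4 fell after IL-1β and IL-17A, and MCC fell after IFNγ. Of 13 nuclear genes 8 were tested, with TCF7L2 lower after TNF (log2 −1.14) and IFNα (log2 −1.01) and PYGO1 lower after IFNγ (log2 −1.86).

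Of 14 feedback targets of the β-catenin pathway only 4 were abundant enough to be tested. CCND1, which drives the cell cycle, rose after IFNγ (log2 1.19 ± 0.37, edgeR adjusted p = 0.0303), and TNFRSF19 fell after TGF-β1 (log2 −2.68 ± 0.82, adjusted p = 0.0407). Of 18 genes of the planar polarity and calcium branch 9 were tested. The small GTPase RAC1 rose after TNF, OSM and TGF-β1, DAAM1 rose after TGF-β1, and CAMK2D (log2 −1.58) and PRICKLE2 (log2 −0.79) fell after TNF.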

How the data were processed

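The authors quantified the reads with kallisto 0.48.0 after FastQC 0.11.9 and MultiQC 1.14, and the deposited table holds estimated counts per gene symbol, of which 5.77% are not whole. The genome build is given as hg38. The transcript set, how transcripts were summed to genes and whether strand was used are not given in the sources used here. Reads from exon bases that a gene shares with another on the opposite strand may therefore have been counted for either gene. Estimated counts were rounded. Genes were kept with the filterByExpr function of edgeR, scaled with TMM and tested with its quasi-likelihood test (edgeR 4.0.16, R 4.3.3) over all 44 libraries with 1 coefficient per group, and p-values were adjusted by Benjamini-Hochberg over 9513 genes within each comparison. Calls are adjusted p-values under 0.05. CPM uses TMM-scaled library sizes. The SE of a log2 fold change is its absolute value over the square root of the quasi-likelihood F, since edgeR gives none. Values in every library are given for members called for at least 1 cytokine, ranges for the others. The members, the pathway and marker lists and the tests were chosen with earlier results of these data known. DESeq2 1.42.0, other filters and scalings, a fold threshold, a replicate block and leaving out each library were tried as alternatives. The scripts were tested on simulated data. Coordinates and exon overlaps are from GENCODE 44 (GRCh38) and upstream sequences from RefSeq (GRCh38.p14).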

Additional observations from a re-analysis of the deposited data

Results flagged for a closer look

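Each of the 9 members called for a cytokine was examined for a library far from the other 3 of its group, by the gap to the nearest library over the range of the group, set against Dixon's 95% critical value. Of 99 sets of 4 libraries 6 were picked out, and chance picks out about 1 in 20. RSPO3 stood at 6.15 CPM in unstimulated replicate 4, where the other 3 lay between 0 and 0.979 CPM, and this library bears on each fold change of RSPO3 against unstimulated cells. RSPO3 stood at 18.7 CPM in IL-17A replicate 2, against 5.57 to 7.21 CPM in the others. DKK3 stood at 37.4 CPM in the same IL-17A library, against 44.5 to 45.9 CPM. FZD4 stood at 16.8 CPM in IL-17A replicate 3, against 6.89 to 8.35 CPM. FZD1 stood at 26.0 CPM in IL-6 replicate 4, against 8.86 to 10.3 CPM. SFRP1 stood at 53.8 CPM in IL-6 replicate 3, against 119.0 to 128 CPM.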

How the results depend on the processing

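Of 30 member calls, 23 kept their direction and their side of the threshold under every alternative that could be fitted, and 7 lost significance under at least 1. The fold threshold was applied only to the numbers of members called and is not part of this tally. No fold change reversed. Fits of the 8 libraries alone left RSPO3 after IFNγ, and RSPO3 and FZD8 between IL-13 and TGF-β1, under the filter on low counts. After IL-1β the fit without the filter on low counts added WNT5A and lost WNT2B. In the main fit WNT5A was at log2 0.69 ± 0.35 after IL-1β and was not called (edgeR adjusted p = 0.308). After TNF 3 members were called in a fit of the 8 libraries alone. After IFNγ that fit called 1, and leaving out a library gave 1 to 3. After IL-17A 1 member, RSPO3, was called without the filter on low counts and by DESeq2, and leaving out a library gave 0 to 1. Without the filter 3 members were called after IL-13 (DKK2 and WNT5A added) and 4 after IFNα (DKK2 and RSPO3 added), and leaving out a library gave 1 to 2 after IL-13, with WNT5A added without unstimulated replicate 1. Between TNF and IL-1β 3 members were called without the filter and 2 by DESeq2, and leaving out a library gave 0 to 1. At an absolute log2 fold change above 1.5, the threshold of the study, 1 member remained after OSM, 0 after IFNα, 1 after TGF-β1 and 1 between IFNα and IFNγ. The cause of these shifts was not tested. DESeq2 gave no adjusted p for 19 member tests, WNT2 between OSM and IL-6 among them.

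The labels give replicate numbers but no shared batch or day. Over all groups, deviations of same-numbered libraries had a mean correlation of 0.0237, against −0.0077 for libraries of other numbers. Of the 40 same-numbered pairs with an unstimulated library, 6 passed 0.1 and the highest was 0.281. The libraries were not treated as paired, and a replicate block was fitted as an alternative. That 22 of 44 libraries, not all, correlated best with their own number is a hint of shared variation from the data, not the design. With a replicate block 4 members were called after IL-1β, 7 after TNF (DKK3 and FZD7 added) and 4 after OSM (WNT2 added), and no call was lost. In a single library a count of 0 leaves any level up to about 3 counts possible. That limit is between 1.39 and 3.85 CPM, depending on the size of the library.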
